A study of Mus musculus with 2 samples.

Results

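The genes described here make cholesterol or sense, transfer, store and export it: 28 mouse genes chosen by name, of which 27 had a probe on the array. A probe was taken when its name in the scanner files was the gene's current symbol or a synonym held by that gene alone, as for Sc4mol, the older name of Msmo1. This gave 35 of 31920 gene probes. Acat2, the cytosolic thiolase that opens the pathway, was matched by no probe name and is not analysed here.

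Liver RNA of 3-month-old mice was hybridised to 2 two-colour oligonucleotide arrays, 1 for 36 h and 1 for 24 h after partial hepatectomy, in which lobes of the liver are cut away and the remnant regrows. On each array Wip1 KO liver RNA carried Cy5 and wild-type (WT) liver RNA carried Cy3, and no array had the dyes exchanged. Wip1 is the product of Ppm1d, a phosphatase that acts on p53 among other targets. The labels give neither the kind of KO allele, nor the sex of the mice, nor how many animals gave each RNA. Each of the 4 combinations of genotype and time was therefore 1 sample, the spread between animals is unknown, and no test was made.

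Cholesterol is built from acetyl-CoA through mevalonate, isoprenoid diphosphates, squalene and lanosterol. When sterols in the endoplasmic reticulum run low, Scap carries the membrane-bound transcription factor SREBP2, the product of Srebf2, to the Golgi, where it is cut and released to switch on most genes of the pathway. When sterols are plentiful, Insig proteins hold Scap back. Excess cholesterol is esterified by the Soat enzymes or exported by Abca1 and Abcg1, which are switched on by the oxysterol receptor LXR. Liver is a main site of all these steps.

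Values are normalised levels in arbitrary units after background correction, loess within each array and equal average brightness between arrays. Levels compare only within 1 probe, and a ratio is Wip1 KO over WT unless stated. A channel counted as above background when its signal stood more than 2 background SDs over the local background, and a gene as measured when both channels of a comparison did. For a gene with several probes the brightest was used. Calls are differences of at least 2-fold. Of the gene probes, 31.1% (Wip1 KO) and 36.8% (WT) were above background at 36 h, and 33.2% and 41.4% at 24 h. The log2 ratios of 4 control genes, each spotted 48 times, had an SD of 0.154 at 36 h and 0.115 at 24 h, which covers spot noise but not labelling, dye or animals. In bulk tissue fewer cells of a type and less RNA per cell cannot be told apart.

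Both arrays carried the RNA of hepatocytes. All 8 hepatocyte markers with a probe were above background in every channel, and all 8 had a ratio above 0 at both times, with median log2 ratios of 0.71 at 36 h and 0.44 at 24 h. Other genes also set the RNAs of the 36 h array apart. All 7 male-biased liver genes measured there were called higher in Wip1 KO, with a median log2 ratio of 4.05, and 8 of 9 female-biased liver genes were called lower, with a median of -4.40. At 24 h none of the measured male-biased genes was called (median -0.16), while 6 of 8 female-biased genes were lower and 1 higher (median -1.94). All 5 measured mitosis genes were called lower in Wip1 KO at 36 h, and 3 of 6 were called higher at 24 h. The sums that follow take every marker with a probe, above background or not. Of 5 Y-linked genes 2 were measured at each time, both above 0. Their median log2 ratio was 1.10 at 36 h and 0.06 at 24 h. The summed level of all 5 was 4945 in Wip1 KO and 1429.7 in WT at 36 h, and 1168 in Wip1 KO and 1081 in WT at 24 h. That of 9 Kupffer cell and macrophage markers was 21537 in Wip1 KO and 19674 in WT at 36 h, and 18271 in Wip1 KO and 22510 in WT at 24 h. That of 8 stellate cell markers was 9825 in Wip1 KO and 11591 in WT at 36 h, and 20551 in Wip1 KO and 11749 in WT at 24 h. Bile duct markers summed to 2715 in Wip1 KO and 4097 in WT at 36 h, and to 8881 in Wip1 KO and 3506 in WT at 24 h, with 4 of 4 measured below 0 at 36 h and 6 of 6 above 0 at 24 h. Erythroid markers summed to 26526 in Wip1 KO and 34791 in WT at 36 h, and to 40916 in Wip1 KO and 19959 in WT at 24 h. Single erythroid genes were mixed at 36 h. Of 3 measured, 2 were below 0 and 1, Alas2, was 3.38-fold higher in Wip1 KO. No adipocyte marker was above background in either channel of the 24 h array or in Wip1 KO at 36 h, and 2 of 4 were in WT at 36 h. Of 5 adrenal markers 1 was above background in each channel. The part of these differences in the results that follow was not tested.

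The promoters of 7 of these genes are printed because 5 of them (Idi1, Cyp51, Nsdhl, Sc5d and Insig1) were called at 36 h, Hmgcs1 carries a match to the sterol regulatory element, and Insig2 differed from the enzymes over time. Each is the 250 bases before the annotated start on the gene's own strand, from RefSeq on GRCm38.p6, with the most upstream start taken where there were several. Insig2 has other annotated starts, and CCAAT was found only before the one printed. Capitals mark CCAAT on either strand (CCAAT or ATTGG), the box that the factor NF-Y binds beside SREBP sites, and in Hmgcs1 also TCACNCCAC, a core of the sterol regulatory element.
Idi1, chr13:8885356-8885605, plus strand: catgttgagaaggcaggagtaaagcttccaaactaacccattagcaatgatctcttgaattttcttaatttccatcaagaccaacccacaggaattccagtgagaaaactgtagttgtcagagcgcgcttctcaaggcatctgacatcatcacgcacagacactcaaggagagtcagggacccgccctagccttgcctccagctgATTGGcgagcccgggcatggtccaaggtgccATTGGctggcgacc
Cyp51, chr5:4104698-4104947, minus strand: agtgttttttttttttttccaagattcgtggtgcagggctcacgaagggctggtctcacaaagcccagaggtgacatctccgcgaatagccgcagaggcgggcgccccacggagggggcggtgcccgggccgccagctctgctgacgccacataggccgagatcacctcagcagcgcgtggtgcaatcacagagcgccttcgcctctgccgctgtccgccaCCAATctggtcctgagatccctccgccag
Nsdhl, chrX:72918271-72918520, plus strand: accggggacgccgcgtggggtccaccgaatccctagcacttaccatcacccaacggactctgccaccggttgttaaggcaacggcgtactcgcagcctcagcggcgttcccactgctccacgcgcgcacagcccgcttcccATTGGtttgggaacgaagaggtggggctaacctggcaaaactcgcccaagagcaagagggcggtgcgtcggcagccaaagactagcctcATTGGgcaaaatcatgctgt
Sc5d, chr9:42264301-42264550, minus strand: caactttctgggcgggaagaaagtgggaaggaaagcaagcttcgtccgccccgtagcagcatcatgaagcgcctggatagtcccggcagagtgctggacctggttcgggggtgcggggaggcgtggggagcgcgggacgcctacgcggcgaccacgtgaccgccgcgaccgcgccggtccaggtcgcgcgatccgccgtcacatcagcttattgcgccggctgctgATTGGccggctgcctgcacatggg
Insig1, chr5:28071162-28071411, plus strand: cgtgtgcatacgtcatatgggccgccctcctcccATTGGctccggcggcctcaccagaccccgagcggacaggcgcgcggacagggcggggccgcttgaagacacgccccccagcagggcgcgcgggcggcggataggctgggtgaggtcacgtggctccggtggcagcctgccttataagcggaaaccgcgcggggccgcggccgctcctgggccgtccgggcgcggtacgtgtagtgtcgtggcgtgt
Hmgcs1, chr13:119690101-119690350, plus strand: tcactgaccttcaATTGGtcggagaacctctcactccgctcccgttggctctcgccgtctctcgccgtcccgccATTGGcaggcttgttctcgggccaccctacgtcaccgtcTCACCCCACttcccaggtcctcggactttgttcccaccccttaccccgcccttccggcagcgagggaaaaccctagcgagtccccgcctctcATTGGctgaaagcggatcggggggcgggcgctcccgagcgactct
Insig2, chr1:121332590-121332839, minus strand: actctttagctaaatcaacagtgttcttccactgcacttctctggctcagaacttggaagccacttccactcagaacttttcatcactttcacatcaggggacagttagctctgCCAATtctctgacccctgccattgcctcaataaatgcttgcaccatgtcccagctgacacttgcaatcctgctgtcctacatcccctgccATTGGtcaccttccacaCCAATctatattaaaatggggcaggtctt

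Promoters of 22 of the 28 genes were in the table, each from 250 bases before to 50 after the start, and all letters were searched on both strands. CCAAT was found in 19 of the 22 genes, against 41.1% of 27025 genes with a promoter (37.4% of 32851 promoters). GGGCGG, the box of the factor Sp1, was found in 20 of 22, against 38.2% of genes. The core TCACNCCAC was found in 1 of 22, Hmgcs1, with its first base 137 bases before the start, against 1.44% of genes. These matches describe the letters of the windows and are not binding sites.

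At 24 h, when both genotypes were compared on one array, most sterol genes lay slightly below WT, none by 2-fold. Of 24 genes measured, 20 had a log2 ratio below 0 and 4 above, with a median of -0.25. Among all 7993 genes measured, 48.1% were below 0, 51.9% above, and the median was 0.01. None of the 24 was at least 2-fold higher or lower, against 1.51% and 0.751% of all genes. Without the filter on dim spots 22 of the 27 genes were below 0, with a median of -0.22.

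The enzymes from lanosterol to cholesterol all pointed the same way at 24 h. Cyp51, the lanosterol demethylase, had a level of 2005 in Wip1 KO and 3166 in WT, 1.58-fold lower, the lowest ratio of the measured sterol genes (log2 -0.66). Msmo1, the methylsterol oxidase, had 2561 in Wip1 KO and 3817 in WT (log2 ratio -0.58). Nsdhl, the sterol dehydrogenase of the demethylation steps, had 2395 in Wip1 KO and 3412 in WT (-0.51). The sterol reductase Tm7sf2 (-0.32) and the ketosterol reductase Hsd17b7 (-0.27) were nearer to 0. Ebp, a sterol isomerase, and Sc5d, a sterol desaturase, were within the spot noise of 0, at -0.0017 and -0.04. All 7 measured genes of this group were below 0 (median -0.32). Dhcr7, the reductase of the last step, was below background in all 4 channels on both of its probes.

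In the mevalonate and squalene steps most genes were below 0 at 24 h and a few above. Fdft1, squalene synthase, had a level of 2015 in Wip1 KO and 3071 in WT, 1.52-fold lower. Fdps, which makes farnesyl diphosphate, had 8051 in Wip1 KO and 11532 in WT, 1.43-fold lower. These 2 enzymes work next to each other in the pathway. Mvd, the mevalonate decarboxylase, had 290.8 in Wip1 KO and 402.02 in WT (log2 ratio -0.47). Sqle, squalene epoxidase, and Idi1, the isopentenyl isomerase, both had a log2 ratio of -0.22, and the kinases Pmvk and Mvk had -0.14 and -0.10. Hmgcs1, the synthase that makes HMG-CoA, stood on the other side. Its level was 1744 in Wip1 KO and 1239 in WT, 1.41-fold higher, and its second probe was below background in every channel. Lss, lanosterol synthase, was also above 0 (log2 ratio 0.30), and Ggps1, which makes geranylgeranyl diphosphate, was above background in WT only.

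Among regulators and handlers, Insig2 had the highest ratio of the measured sterol genes at 24 h. Its level was 3917 in Wip1 KO and 2451 in WT, 1.60-fold higher on the brighter probe, while the second probe gave 944.8 in Wip1 KO and 989.8 in WT (log2 ratio -0.07). Both probes were above background, so the direction for Insig2 at 24 h depends on the probe. Srebf2 (-0.31), Scap (-0.14) and Insig1 (-0.13) were below 0. Stard4, a soluble sterol carrier, had a level of 524.6 in Wip1 KO and 723.7 in WT (-0.46). Soat2, the esterifying enzyme of hepatocytes, had a log2 ratio of -0.51. The exporter Abca1 was at -0.41 and Abcg1 at 0.21. Soat1, the esterifying enzyme of macrophages, was below background in all 4 channels.

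At 36 h the same comparison gave the opposite picture, with nearly all measured sterol genes above WT. Of 19 genes measured 18 had a log2 ratio above 0, with a median of 0.72, and 6 were at least 2-fold higher in Wip1 KO. Among all 7436 genes measured, 54.0% were above 0 and 46.0% below, the median was 0.03, 2.65% were at least 2-fold higher and 2.06% lower. No measured sterol gene was at least 2-fold lower. Of the 8 other genes with a probe, 5 were above background in 1 channel and 3 in neither. Over all 27, without the filter on dim spots, 20 were above 0 and 7 below, with a median of 0.48.

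**Figure D1:**
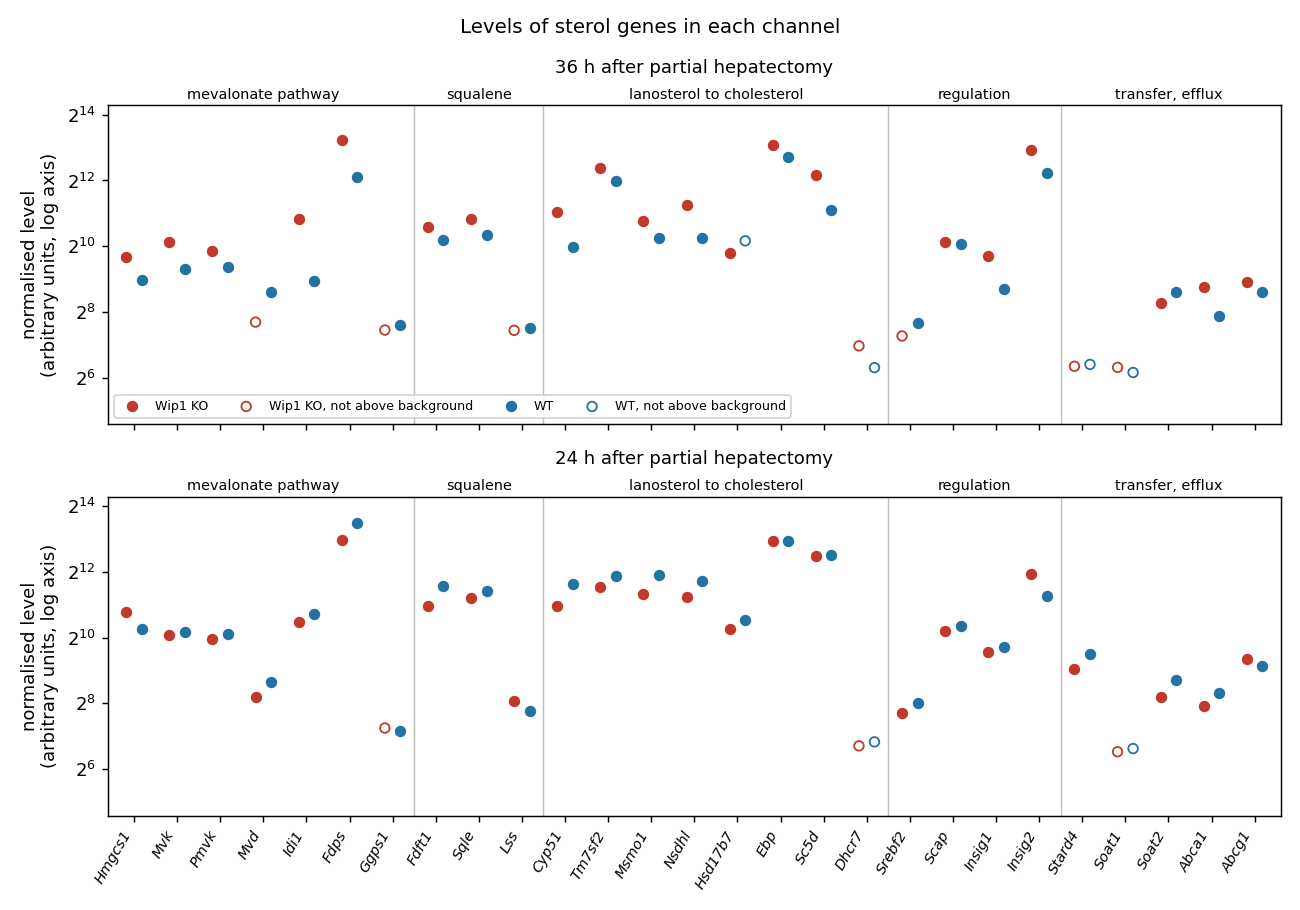
Normalised level (arbitrary units, log axis) of the brightest probe of each of 27 sterol genes in Wip1 KO (left point) and WT (right point) liver, at 36 h (upper panel) and 24 h (lower panel) after partial hepatectomy. Open circles were not above background, each point is 1 channel of 1 array, and levels compare only within a gene. Idi1 sits at 1828 in Wip1 KO and 493.4 in WT at 36 h, and at 1439 in Wip1 KO and 1672 in WT at 24 h.

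By group the median log2 ratio at 36 h was 0.82 for the mevalonate and isoprenoid steps, 0.44 for squalene steps, 0.77 for lanosterol to cholesterol, 0.72 for regulators and 0.31 for transfer, esterification and export. The isoprenoid enzymes held the highest ratios at 36 h. Idi1 had a level of 1828 in Wip1 KO and 493.4 in WT, 3.70-fold higher, the 38th highest ratio of 7436 genes. Fdps had 9526 in Wip1 KO and 4438 in WT on the brighter probe, 2.15-fold higher, and 4038 in Wip1 KO and 1382 in WT on the other, 2.92-fold higher. Both probes of Fdps were past the 2-fold threshold. Mvk was 1.77-fold, Hmgcs1 1.65-fold and Pmvk 1.42-fold higher, Pmvk with a level of 929.8 in Wip1 KO and 654.1 in WT. Mvd went against them. Its signal of 206.6 in Wip1 KO was not above background, against 387.2 in WT, so that Wip1 KO read 1.87-fold lower on a dim spot. For genes detected in a single channel a bound sets the bright channel's level against the lowest level above background in the other. Where the dim channel's own level was higher, as for Mvd, it was used instead and gives a plain ratio, not a limit. Ggps1, also not above background in Wip1 KO, had a log2 ratio within the spot noise of 0 (-0.15).

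Of the squalene and sterol enzymes 3 passed the threshold at 36 h. Sc5d had a level of 4608 in Wip1 KO and 2205 in WT, 2.09-fold higher. Cyp51 had 2097 in Wip1 KO and 1010.0 in WT, 2.08-fold higher. Nsdhl had 2439 in Wip1 KO and 1209 in WT, 2.02-fold higher. All 3 lay close to the 2-fold line, and past it under the other background corrections, the other normalisations and the deposited ratios. The filter settings, the mean over probes and the bounds leave these values as they are by construction. Msmo1 (1.44-fold higher), Sqle (1.40-fold), Tm7sf2 (1.34-fold), Fdft1 (1.31-fold) and Ebp (1.28-fold) were above 0 without being called. Hsd17b7 was above background in Wip1 KO only, where its level was 896.5, against 1146 in WT, where it did not pass the background rule. Lss was above background in WT only. Going by its own dim level, Wip1 KO read 1.04-fold lower, within the spot noise of a ratio of 1.

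Insig1, which is itself a target of SREBP2, was the one regulator called at 36 h. Its level was 834.2 in Wip1 KO and 414.3 in WT, 2.01-fold higher (log2 ratio 1.01), but 0.95 under print-tip loess and so just short of a call there. Insig2 had 7833 in Wip1 KO and 4769 in WT, 1.64-fold higher, and its second probe gave a log2 ratio of 0.53. Scap, the escort protein, was near 0 (0.08). Srebf2 itself had 154.2 in Wip1 KO, not above background, and 204.01 in WT, with Wip1 KO reading 1.32-fold lower on a dim spot. Abca1, the LXR-driven exporter, had 435.2 in Wip1 KO and 233.9 in WT, 1.86-fold higher. Whether Abca1 was called depended on the processing. Its log2 ratio was 1.20 with background subtracted plainly, 1.05 with none corrected and 1.28 in the deposited ratios. It was 0.90 under median centring and 0.91 under print-tip loess. Abcg1 was at a log2 ratio of 0.31, and Soat2, with 306.1 in Wip1 KO and 390.8 in WT, was the single measured gene below 0 (-0.35). Neither channel was above background for Stard4 at 36 h.

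**Figure D2:**
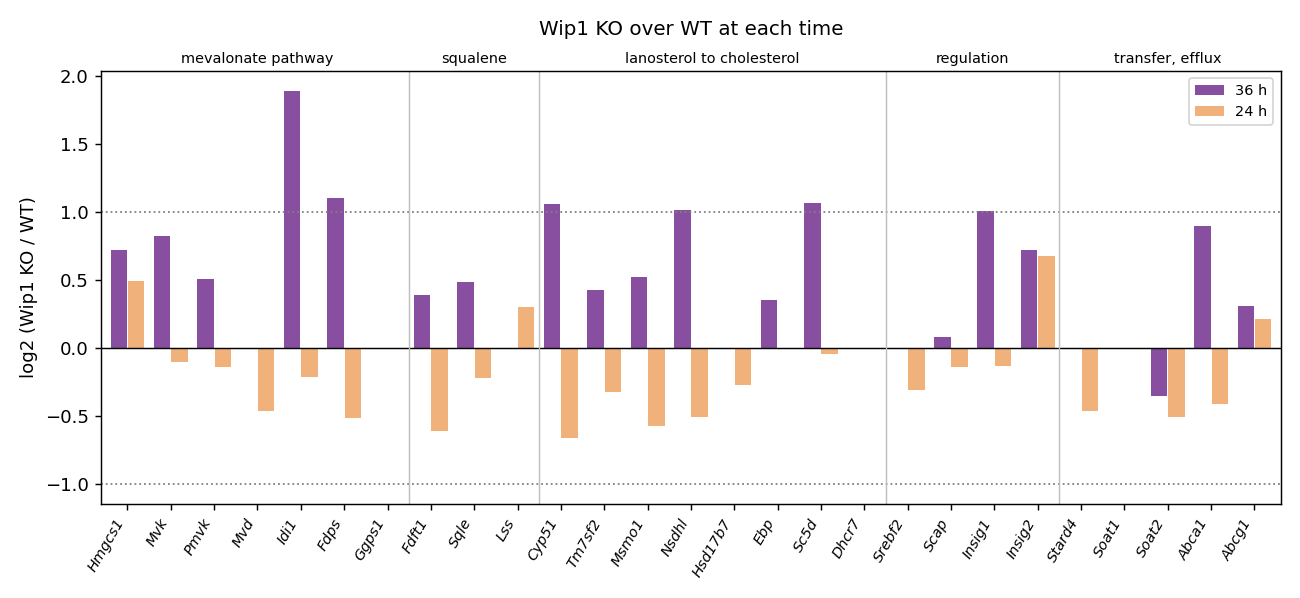
Log2 ratio of Wip1 KO over WT for each sterol gene in pathway order, at 36 h (left bar) and 24 h (right bar), with dotted lines at 2-fold and no bar where a channel was not above background. Each bar is 1 array. At 36 h 18 of 19 bars point up, and at 24 h 20 of 24 point down.

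The next comparison follows each genotype over time, with the 36 h array set against the 24 h array. Time and array cannot be told apart here, and the WT values at 36 h enter both this comparison and the genotype ratio at 36 h. In WT liver most synthesis genes were lower at 36 h than at 24 h, and in Wip1 KO liver values lay on both sides of 0. In Wip1 KO 9 of 20 measured sterol genes were below 0 and 11 above, with a median log2 change of 0.04, and 1 was called lower. Of all 7092 genes measured there, 45.0% were below 0, 55.0% above and 3.61% called lower, with a median of 0.05. In WT 20 of 23 sterol genes were below 0 and 3 above, with a median of -0.74, and 10 were called lower. Of all 8558 genes measured in WT, 46.1% were below 0, 53.9% above and 1.55% called lower, with a median of 0.03. On its brightest probe no measured sterol gene was at least 2-fold higher at 36 h in either genotype. Of all genes, 2.52% in Wip1 KO and 1.38% in WT were. This count depends on the probe. The second probe of Insig2 was past 2-fold in both genotypes, with log2 changes of 2.03 in Wip1 KO and 1.43 in WT.

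Among the sterol genes above background at both times, Idi1 had the lowest change in WT, with a level of 493.4 at 36 h against 1672 at 24 h, 3.39-fold lower and the 20th lowest change of 8558 genes. In Wip1 KO its level was 1828 at 36 h and 1439 at 24 h (log2 change 0.34). Msmo1 and Cyp51 came next among these genes in WT, 3.14-fold and 3.13-fold lower at 36 h. In Wip1 KO Cyp51 had 2097 at 36 h and 2005 at 24 h (log2 change 0.06), and Msmo1 had 1748 at 36 h and 2561 at 24 h (-0.55). These 2 enzymes of the demethylation steps thus had nearly equal changes in WT and unequal ones in Wip1 KO.

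The other genes called in WT were Nsdhl (2.82-fold lower at 36 h), Sc5d (2.68-fold), Fdft1 (2.63-fold), Fdps (2.60-fold), Hmgcs1 (2.49-fold), Sqle (2.13-fold) and Insig1 (2.02-fold). In Wip1 KO Nsdhl (log2 change 0.03), Insig1 (0.13) and Fdps (0.24) were slightly above 0 at 36 h. Sc5d (-0.32), Sqle (-0.39) and Fdft1 (-0.40) were below it by less than 2-fold. Hmgcs1 was the exception. Its level in Wip1 KO was 819.8 at 36 h and 1744 at 24 h, 2.13-fold lower, so that this early enzyme of the pathway was lower at 36 h in both genotypes.

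A few genes had similar changes in both genotypes, or higher levels at 36 h. Insig2 had a level of 7833 at 36 h and 3917 at 24 h in Wip1 KO (log2 change 1.00), and 4769 at 36 h and 2451 at 24 h in WT (0.96), both just short of a call. Its second probe gave changes of 2.03 in Wip1 KO and 1.43 in WT. Stard4 was lower at 36 h in both genotypes, at a level of 81.4 not above background against 524.6 at 24 h in Wip1 KO, and 84.6 against 723.7 in WT. The bounds were at least 4.69-fold lower in Wip1 KO and at least 6.48-fold lower in WT. Tm7sf2 differed from its neighbours in the pathway, with log2 changes of 0.84 in Wip1 KO and 0.09 in WT. Abca1 was higher at 36 h in Wip1 KO (0.85) and lower in WT (-0.46), and Abcg1 was lower in both (-0.44 in Wip1 KO and -0.54 in WT). Mvd was near 0 in WT (-0.05), and Ggps1 was at 0.45 there. Ebp, Scap, Srebf2, Lss and Soat2 lay between -0.34 and -0.11 in WT. In Wip1 KO 3 genes were above background at 24 h but not at 36 h besides Stard4. Going by their own dim levels at 36 h, they read lower by 1.56-fold (Lss), 1.41-fold (Mvd) and 1.36-fold (Srebf2).

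**Figure D3:**
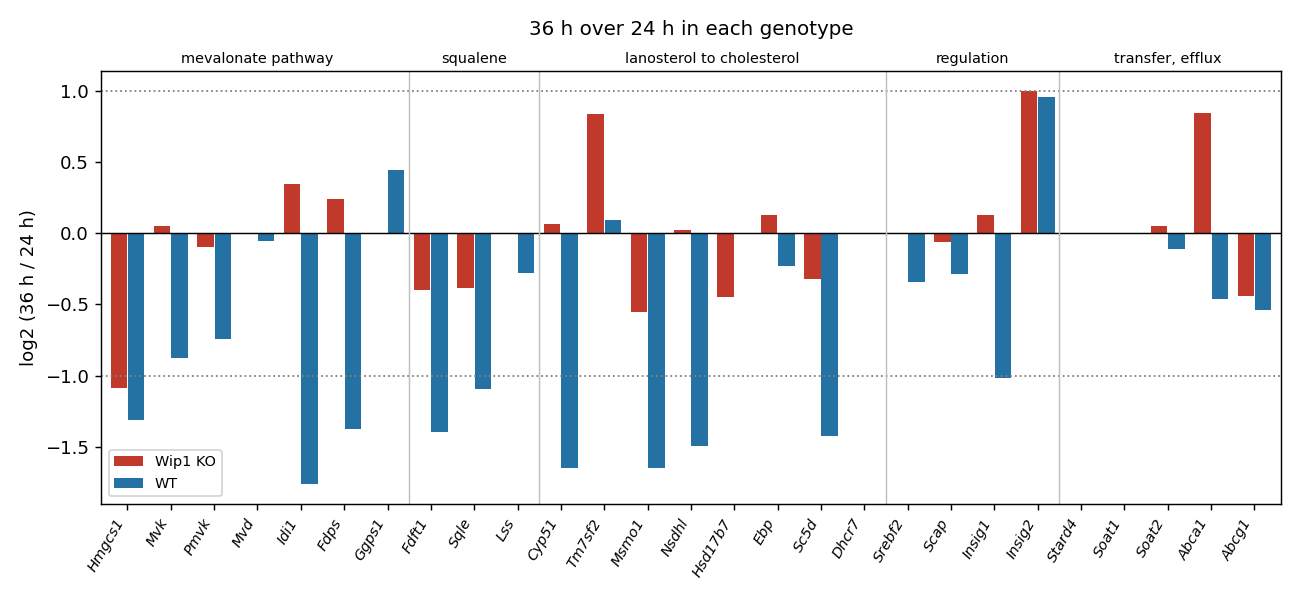
Log2 change from 24 h to 36 h after partial hepatectomy (36 h over 24 h) for each sterol gene, in Wip1 KO (left bar) and WT (right bar) liver, with dotted lines at 2-fold and no bar where a level was not above background. Each bar sets 1 channel of one array against the same channel of the other. In WT 10 bars pass the lower line, and in Wip1 KO 1 does, that of Hmgcs1.

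The change of the genotype ratio between the times sums up these values for the 19 genes above background in all 4 channels. All 19 had a higher ratio at 36 h than at 24 h, against 53.2% of 7004 genes (46.8% had a lower one), and 15 were above 0 at 36 h and below 0 at 24 h, against 25.2%. Among these 15, Ebp, Sc5d and Mvk were within the spot noise of 0 at 24 h, and Scap was at 36 h. The median of the log2 ratio at 36 h minus that at 24 h was 0.93, against 0.03 over all genes. For 8 of the 19 the ratio was at least 2-fold higher at 36 h, against 4.04% of genes higher and 4.17% lower. The ratio of Idi1 was higher by 2.11 log2 units, that of Cyp51 by 1.71, Fdps by 1.62 and Nsdhl by 1.52. Abca1, Insig1, Sc5d and Msmo1 followed with differences between 1.10 and 1.31. Fdft1 (1.00) fell just inside the threshold and Mvk (0.93) further inside. Insig2 (0.04), Abcg1 (0.10), Soat2 (0.16), Scap (0.22) and Hmgcs1 (0.23) had the smallest differences, and the second probe of Insig2 gave 0.60. With 1 array a time this difference between the times was not tested. With background subtracted plainly or not corrected, 18 of 19 rather than 19 had a higher ratio at 36 h. Over all 27 genes with a probe, without the filter on dim spots, 22 had a higher and 5 a lower ratio at 36 h, with a median of 0.64. With genes detected in a single channel at their bounds, 20 had a higher and 4 a lower ratio.

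**Figure D4:**
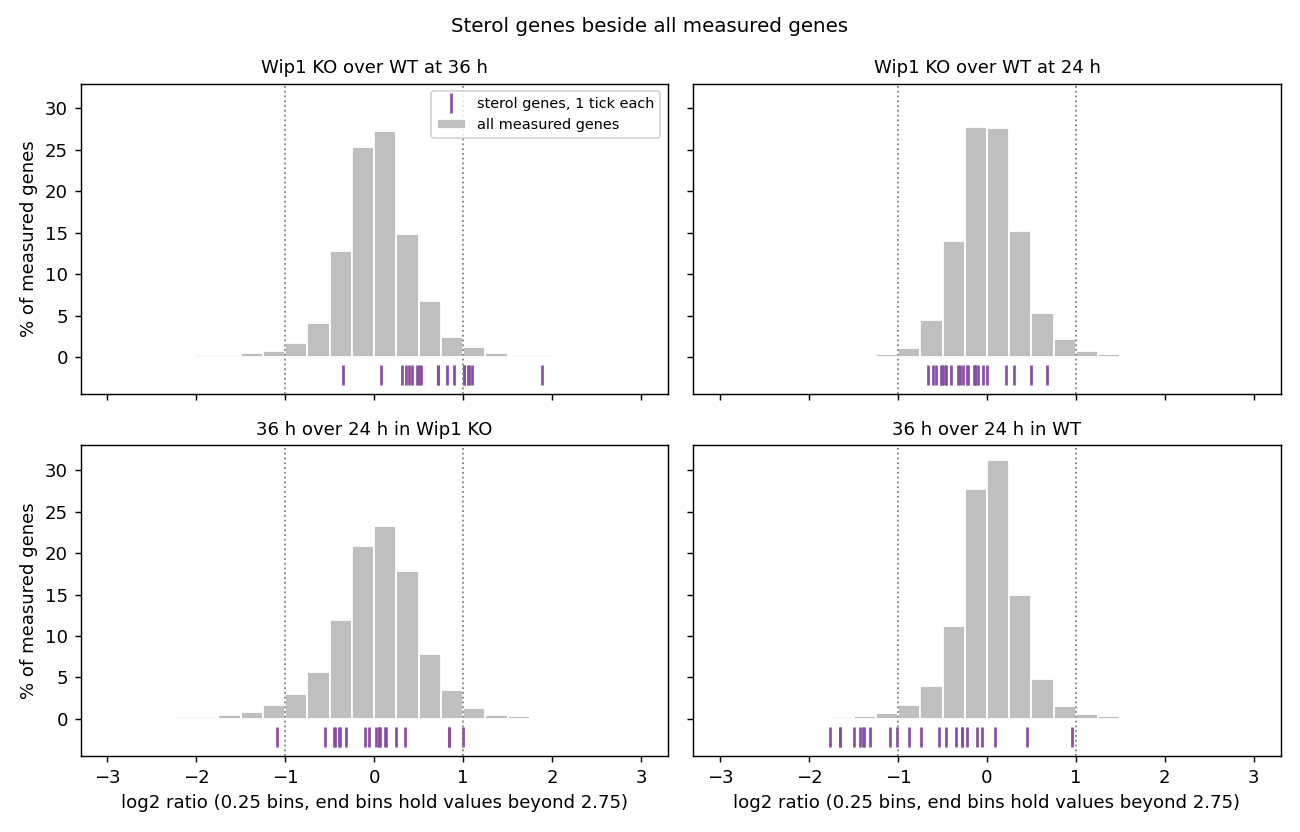
Share of all measured genes (% per bin of 0.25 log2 units, grey) in the 4 comparisons, with 1 tick for each measured sterol gene below the axis and dotted lines at 2-fold. The ticks lie mostly right of 0 for Wip1 KO over WT at 36 h (median 0.72) and left of 0 at 24 h (median -0.25), and for 36 h over 24 h in WT 20 of 23 lie left of 0 (median -0.74).

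Other genes of sterol metabolism were less uniform. Of 14 genes of the SREBP machinery or its further targets, 10 were measured at 36 h, 7 of them above 0 (median log2 ratio 0.39), and 2 were called higher in Wip1 KO. These were Acly (2.72-fold) and Acss2 (2.25-fold), which both make acetyl-CoA in the cytosol. At 24 h 5 of 11 were above 0 and none was called (median -0.01). In WT 10 of 12 were below 0 at 36 h over 24 h, with Acly 2.05-fold lower, and in Wip1 KO 4 of 10 were. The isoprenoid branch beyond Fdps, with 5 of 9 genes measured, had medians of -0.32 at 36 h and -0.18 at 24 h, and none was 2-fold apart. Of 19 sterol carriers, receptors and oxysterol enzymes, 11 were measured at each time, with medians of -0.12 at 36 h and 0.12 at 24 h and none called. Between the times 2 of these had a genotype ratio at least 2-fold lower at 36 h, the biliary sterol exporter Abcg5 (log2 change of the ratio -1.43) and the oxysterol hydroxylase Cyp39a1 (-1.42). Cyp39a1 was also 2.46-fold lower at 36 h than at 24 h in Wip1 KO.

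Probes for the same gene give a check within each array. Pmvk, Fdps, Tm7sf2 and Insig2 had 2 measured probes each at both times, and the SD of the log2 ratio between probes of these genes was 0.212 at 36 h and 0.279 at 24 h. Over all genes with several measured probes the SD was 0.258 at 36 h (800 genes) and 0.259 at 24 h (838 genes). The probes of Pmvk gave log2 ratios of 0.51 and 0.82 at 36 h and -0.14 and -0.38 at 24 h, and those of Tm7sf2 gave 0.42 and 0.25 at 36 h and -0.32 and -0.30 at 24 h. The direction was thus shared by both probes except for Insig2 at 24 h.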

How the data were processed

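Raw spot intensities from the scanner files were used, quantified with LuxScan per the file headers at 635 nm for Cy5 (Wip1 KO) and 532 nm for Cy3 (WT, per the labels). The authors' deposited table of linear ratios of Wip1 KO over WT, normalised by a method not given in the sources used here, served as an alternative only. It names no probes. Its rows after the first 4 were matched to the gene probes in descending order of probe ID, checked by a correlation with the loess ratios of 0.974 at 36 h and 0.971 at 24 h, against 0.0432 and 0.0260 when shifted by 1 row.

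Median foreground was corrected by normexp (offset 50), then loess was fitted per array, giving the 1776 control spots no weight, followed by Aquantile between arrays, in limma 3.58.1 under R 4.3.3. The offset draws ratios of dim genes towards 0. No gene of the set was saturated. The pipeline was tested on simulated data. Names were updated with the RefSeq table of GRCm38.p6: among 19519 names, 14294 were current symbols, 3873 matched 1 gene by synonym, 90 matched several genes and 1261 none, and 1 was blank. Counting used Python 3.11.15 with pandas 2.3.3, and figures matplotlib 3.10.9.

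All members of the set are named. The members, the other gene lists and the 2-fold threshold were chosen with earlier results of these data known. With 1 array per time, the precision is limited by the number of arrays, and no test or p-value was made. Alternatives covered background correction, normalisation, the filter on dim spots (2 background SDs, none, or 5), the mean over probes, bounds for genes above background in 1 channel, and the deposited ratios.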

Additional observations from a re-analysis of the deposited data

Results flagged for a closer look

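For 8 sterol genes the Wip1 KO over WT ratio was above 1 at 36 h and below 1 at 24 h, and at least 2-fold apart between the times. Of all 7004 genes measured at both times, 4.04% had a ratio at least 2-fold higher at 36 h, whatever its side of 1. Sc5d was within the spot noise of a ratio of 1 at 24 h. With 1 array at each time the difference was not tested. The log2 ratio at 36 h minus that at 24 h was 2.11 for Idi1, 1.71 for Cyp51, 1.62 for Fdps and 1.52 for Nsdhl. It was 1.31 for Abca1, 1.14 for Insig1, 1.10 for Sc5d and 1.10 for Msmo1. Of these, 7 belong to or regulate the synthesis pathway and Abca1 exports cholesterol. Groups of 1 sample could not be searched for outlying samples.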

How the results depend on the processing

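No paired analysis was possible because each time had 1 array and no test was made, and no replicate could be left out. The median log2 ratio of the measured sterol genes at 24 h ranged from -0.38 to -0.22 over all settings and was -0.38 under median centring. At 36 h it ranged from 0.48 to 0.78, with 0.48 when dim spots were kept and 0.50 when genes detected in a single channel entered at their bounds. For 36 h over 24 h in WT it ranged from -1.01 to -0.54, with -0.54 without the filter and -1.01 under the stricter filter. In Wip1 KO it lay between -0.08 and 0.12, on both sides of 0. The median difference of the genotype ratio, 36 h minus 24 h, was 1.13 under median centring, 0.64 without the filter and 0.67 with bounds. Median centring moved the median of all genes for this difference to 0.22, against 0.03 under loess. Under median centring the medians of all genes were -0.11 at 24 h, 0.09 at 36 h, 0.15 over time in Wip1 KO and -0.06 over time in WT. The cause of the differences between settings was not tested. Without the filter, or with bounds, dimmer genes also enter the medians. Of the 6 genes called at 36 h, 5 passed 2-fold under every setting tried, and Insig1 was at 0.95 under print-tip loess. At 36 h 5 to 7 genes were called higher. In WT 9 to 11 were called lower over time and 0 or 1 higher. In Wip1 KO 0 to 2 were called lower over time and 0 or 1 higher. No called value of a single gene changed sign under the other background corrections, normalisations or deposited ratios. The filter settings and bounds, and the mean over probes for genes with 1 probe, leave most single values as they are by construction.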
